A study of Mus musculus with 8 samples.

Results

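Apolipoproteins and the proteins that load them with lipid were followed at the level of mRNA through 10 genes, chosen by gene symbol: Apob, Mttp and Apobec1, which make and load the core particle, and Apoa1, Apoa2, Apoa4, Apoa5, Apoc3, Apoe and Apoh, which encode proteins carried on lipoproteins. All 10 were found among the 52195 genes of the table, and all 10 passed the filter on low values described here. The libraries came from normal male C57BL/6J mice of 6 to 10 weeks (strain C57BL/6 in the labels), with no treatment or altered gene in any group. Liver, small intestine, kidney and lung were taken from each mouse as whole organs, and 2 libraries of polyadenylated RNA were made per tissue, 8 in all. The comparison of interest was liver against small intestine, with kidney and lung as tissues that make few lipoproteins.

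Lipids travel in blood as particles with a coat of apolipoproteins. The liver secretes very low density lipoproteins and the small intestine secretes chylomicrons after a meal, and both are built around a single molecule of apolipoprotein B, onto which the microsomal triglyceride transfer protein (Mttp) loads triglyceride in the endoplasmic reticulum. High density lipoproteins are built around apolipoprotein A-I and, beside it, A-II. The smaller apolipoproteins move between particles, where they activate or inhibit lipases or bind receptors.

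Levels are given as FPKM, a normalised read count per kilobase of transcript that corrects for gene length and library size. The depth recovered from the steps of the values was between 9399915 and 22133911 reads on genes per library, and 3 reads on a gene with 1 kb of exons corresponded to 0.140 to 0.327 FPKM. Such floors cover counting error only. Each tissue showed its own marker genes, with summed hepatocyte markers at 48746 and 43382 FPKM in liver and 22.0 to 517 elsewhere, and summed enterocyte markers at 6682 and 8736 in small intestine and 17.8 to 73.5 elsewhere. The small intestine also held pancreatic acinar transcripts, with all 6 markers above liver and summed levels of 2549 in replicate 1 and 1182 in replicate 2, and adipocyte transcripts, with all 4 markers above liver and sums of 36.7 and 52.6 against 1.49 and 0.540, although Plin1 and Lep were at most 0.138 FPKM. The part of either in the intestinal values was not tested. In whole organs, fewer cells of a type and less RNA per cell cannot be told apart. Differences were tested with limma on log2(FPKM + 1) over 16328 genes with Benjamini-Hochberg adjustment, and a gene was called where the adjusted p was under 0.05 and the log2 difference over 1 in size.

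In liver against small intestine, 4 of the 10 members were called higher in liver, Apoa2, Apoh, Apoa5 and Apoe, and 3 were called higher in small intestine, Apoa4, Mttp and Apobec1. The remaining 3, Apob, Apoa1 and Apoc3, were not called. Of all genes tested, 7.89% were called higher in liver and 28.3% lower, 36.2% in either direction. The median difference was 0.68 over the members and -0.50 over all genes, both on the log2 scale. With median-of-ratios scaling, which sets the typical gene equal between libraries, the median of all genes moved to -0.03, and the share of calls that were higher in liver moved from 21.8% to 48.0%. All 7 member calls held under that scaling.

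**Figure D1:**
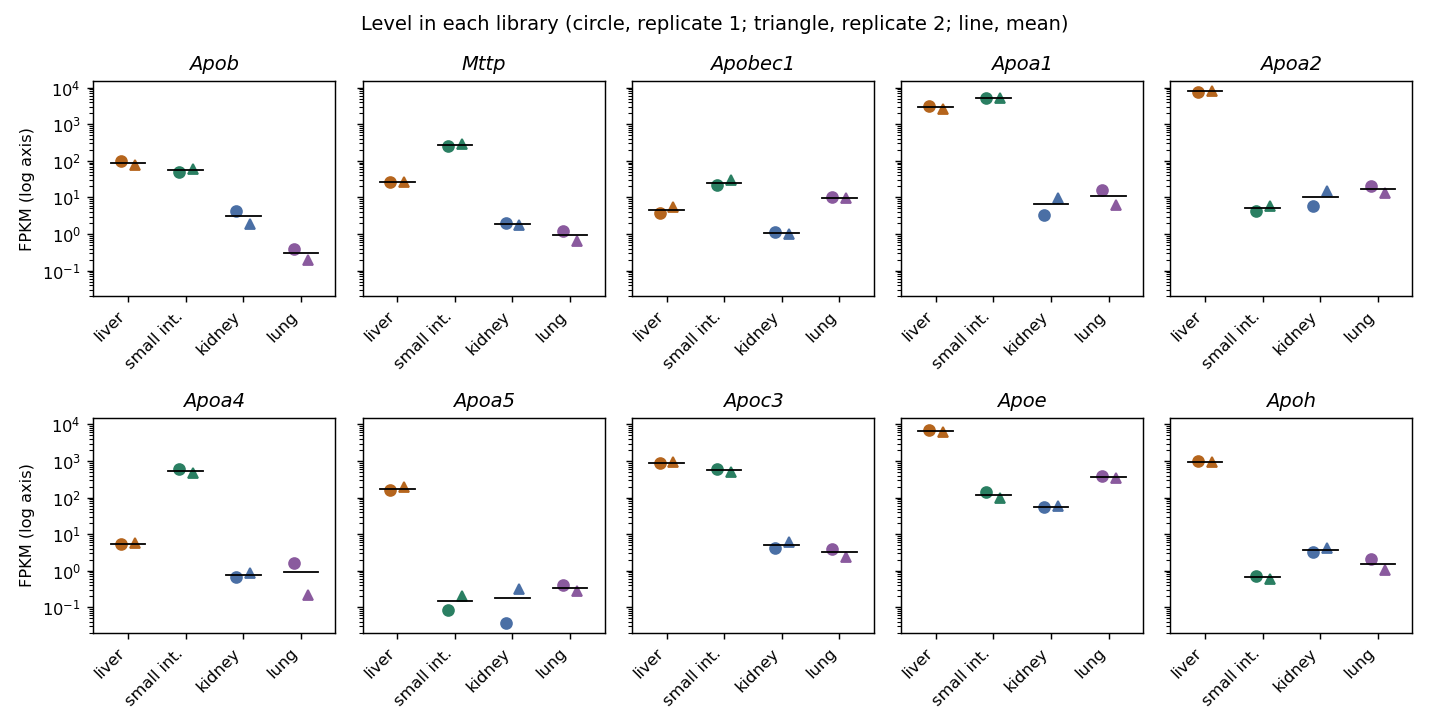
FPKM of the 10 members in each library on a log axis, by tissue, with circles for replicate 1, triangles for replicate 2 and lines for the mean of the 2. Apob, Apoa1 and Apoc3 are high in both liver and small intestine, Apoa2, Apoa5 and Apoh in liver, and Apoa4 and Mttp in small intestine, while Apoe and Apobec1 also have clear levels in lung.

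Apob (chromosome 12, 7977648 to 8016835, plus strand, GRCm38) encodes the scaffold of chylomicrons and of very low and low density lipoproteins. The 29 exons add up to 13934 bases, and none of that length is shared with another gene. Apob was at 98.4 and 74.7 FPKM in the liver libraries, 48.9 and 60.9 in small intestine, 4.39 and 1.89 in kidney, and 0.397 and 0.191 in lung. Both liver libraries were above both intestinal ones, and the tissues ranked liver, small intestine, kidney, lung with no overlap. The difference of liver minus small intestine was 0.64 on the log2 scale (SE 0.30, 95% interval -0.07 to 1.35, limma adjusted p = 0.108), so the first neighbours in this order did not differ beyond the spread tested. With median-of-ratios scaling it was 1.50 (adjusted p = 0.00252) and with quantile normalization 1.03 (adjusted p = 0.00821), and both values passed the thresholds.

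The Apob mRNA carries the site at which a cytidine is deaminated to make a stop codon, which yields the short form of the protein found in chylomicrons. The site lies in exon 26 of 29 at codon 2179, and the deaminated base is at position 8008054 of chromosome 12. It is printed here because Apobec1, another member, encodes the deaminase. FPKM values count reads over the whole gene, so the edited share was not measured. In the reference, from the GENCODE M21 transcript, chr12:8008044-8008073 on the plus strand reads as follows, with the target cytidine in capitals.
Apob editing site: atacgcgataCaatttgatcagtatattaa

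Mttp (chromosome 3, 138089854 to 138144968, minus strand) encodes the large subunit of the triglyceride transfer protein. It was at 26.3 and 27.1 FPKM in liver and at 259 and 291 in small intestine. Kidney had 1.97 and 1.82 FPKM and lung 1.20 and 0.635. The intestinal libraries stood far above all others, and liver in turn stood above kidney and lung. Liver was lower than small intestine by a log2 difference of -3.31 (SE 0.18, adjusted p = 3.26e-06), or 10.3-fold on the mean FPKM. Over all alternatives and with any liver or intestinal library left out the difference stayed between -3.39 and -2.47. The exons share 9.49% of their length with Gm43691 and Trmt10a on the other strand.

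Apobec1 (chromosome 6, 122577792 to 122602444, minus strand), the catalytic part of the Apob mRNA editing enzyme, had the lowest mean level of the 10 members in liver, at 3.80 and 5.56 FPKM. Small intestine was at 21.7 and 29.3. The level in lung was 9.97 and 9.89, above both liver libraries, and kidney had 1.12 and 0.983. The order of these values was small intestine, lung, liver, kidney, without overlap of neighbours. Lung and liver changed places with median-of-ratios scaling, at 6.87 and 8.86 in liver and 5.49 and 5.21 in lung. Liver minus small intestine was -2.23 (SE 0.21, adjusted p = 8.11e-05), a 5.46-fold lower mean FPKM in liver. The difference was smaller with median-of-ratios scaling (-1.48) and with quantile normalization (-1.45), and was called with both.

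Apoa1 (chromosome 9, 46228580 to 46230466, plus strand) encodes the main protein of high density lipoproteins and the activator of the plasma enzyme that esterifies cholesterol. It reached 3172 and 2572 FPKM in liver, against 5166 and 5185 in small intestine. In kidney the level was 3.40 and 9.53, and in lung 16.2 and 6.32, with overlapping ranges. Both intestinal libraries were above both liver libraries, and Apoa1 ranked 4 and 3 among all genes outside the mitochondrial ones in small intestine, against 21 and 24 in liver. The difference was -0.86 (SE 0.48, 95% interval -1.97 to 0.26, adjusted p = 0.163) and was not called. The spread in this test is pooled over all 4 tissues. For Apoa1 the replicates were further apart, as a ratio, in kidney and lung than in liver and small intestine. Over the alternatives other than leaving a library out, the limma adjusted p ran from 0.00750 to 0.997. The direction of the difference depended on the scaling, at 0.012 with median-of-ratios scaling and -1.91 with quantile normalization (adjusted p = 0.0307), where it was called.

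Apoa2 (chromosome 1, 171225054 to 171226379, plus strand), the other structural protein of high density lipoproteins, showed a different distribution. Its level was 7631 and 8207 FPKM in liver, where it ranked 4 among all genes outside the mitochondrial ones in both libraries. Small intestine had 4.38 and 5.76, kidney 5.82 and 14.7, and lung 20.98 and 12.9. Liver stood alone, and both intestinal libraries were below all others, by little in the case of kidney replicate 1. Liver minus small intestine was 10.36 on the log2 scale (SE 0.39, adjusted p = 4.77e-07), the largest difference among the members. Thus of the pair of main high density lipoprotein genes, Apoa1 was high in both secreting tissues and Apoa2 in liver.

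The sequences before the starts of 4 members are shown because these genes stand for the patterns found, with Apob and Apoa1 high in both tissues, Apoa2 in liver and Apoa4 in small intestine. They were taken from RefSeq promoter windows of GRCm38.p6, of which 9 of the 10 members had an entry, and were ended where the first annotated exon begins. Capitals mark TATAAA, the TATA box, and CAAAG, letters within the motif of the liver and gut factor Hnf4a, on either strand. These motifs cannot share a base.
Apob, chr12:7977427-7977647, plus strand: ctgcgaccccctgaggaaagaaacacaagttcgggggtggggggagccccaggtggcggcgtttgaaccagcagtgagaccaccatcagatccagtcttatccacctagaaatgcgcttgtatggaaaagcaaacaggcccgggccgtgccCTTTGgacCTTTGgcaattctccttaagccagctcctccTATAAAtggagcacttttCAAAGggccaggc
Apoa1, chr9:46228380-46228579, plus strand: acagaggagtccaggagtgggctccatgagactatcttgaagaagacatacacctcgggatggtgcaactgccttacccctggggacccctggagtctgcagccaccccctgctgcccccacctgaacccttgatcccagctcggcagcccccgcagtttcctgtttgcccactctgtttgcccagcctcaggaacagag
Apoa2, chr1:171224804-171225053, plus strand: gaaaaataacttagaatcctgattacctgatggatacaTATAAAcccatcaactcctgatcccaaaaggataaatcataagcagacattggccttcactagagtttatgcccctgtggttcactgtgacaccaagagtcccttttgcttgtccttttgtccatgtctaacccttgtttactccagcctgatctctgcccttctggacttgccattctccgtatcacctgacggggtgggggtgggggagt
Apoa4, chr9:46240594-46240695, plus strand: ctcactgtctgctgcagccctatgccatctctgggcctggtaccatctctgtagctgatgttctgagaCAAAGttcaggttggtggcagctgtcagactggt

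In windows of 250 bases before the start, CAAAG was found in 7 of the 9 members with an entry, Apob, Mttp, Apobec1, Apoa4, Apoa5, Apoe and Apoh, and in 48.6% of the 32851 windows of all genes. TATAAA was found in 4 of 9, Apob, Apobec1, Apoa2 and Apoa5, and in 12.4% of all windows. The matches are a description of letters and not of bound sites. The members with CAAAG included genes high in liver, in small intestine and in both. Apoa1 and Apoa2 held no match to CAAAG in these windows. Hnf4a itself was at 61.5 and 60.3 FPKM in liver, 58.7 and 79.3 in small intestine, 93.8 and 62.2 in kidney, and 0.764 and 0.350 in lung, so that lung was the lowest tissue. The order of liver and kidney depended on the scaling, with median-of-ratios values of 111 and 96.1 in liver and 91.0 and 86.5 in kidney. The 10 members were in kidney at no more than 5.07% of the mean of their highest tissue in the deposited values.

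Apoa4 (chromosome 9, 46240696 to 46243459, plus strand) encodes an apolipoprotein of newly made chylomicrons. It was at 5.47 and 5.55 FPKM in liver, 601 and 466 in small intestine, 0.668 and 0.859 in kidney, and 1.64 and 0.222 in lung, where replicate 2 rested on 5 reads. The small intestine stood alone, liver was above kidney and lung, and the ranges of kidney and lung overlapped. Liver minus small intestine was -6.35 (SE 0.33, adjusted p = 2.92e-06), and the mean FPKM was 96.8-fold higher in small intestine. Of its exon length, 69.8% is shared with Gm47528 and Gm10680 on the other strand. Whether the counting used strand is not given in the sources used here, so reads in the shared stretch cannot be told apart. Gm10680 was listed at 0 in all 8 libraries, and Gm47528 was at 0.780 and 3.34 FPKM in small intestine and at most 0.0442 elsewhere.

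Apoa5 (chromosome 9, 46268633 to 46271919, plus strand), which promotes the hydrolysis of plasma triglyceride, lay at 156 and 191 FPKM in liver. In all other libraries it was low, at 0.0847 and 0.210 in small intestine, 0.0370 and 0.321 in kidney, and 0.406 and 0.287 in lung. These values rested on 2 and 6 reads in small intestine, 2 and 14 in kidney and 10 and 9 in lung. Both lung libraries were above both intestinal ones, and kidney overlapped with each, while all 3 overlapped with median-of-ratios scaling. Liver minus small intestine was 7.25 (SE 0.20, adjusted p = 1.68e-07). This scale understates a difference from values near 0. Of its exon length, 20.8% is shared with Gm47544, which was listed at 0 in every library.

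Apoc3 (chromosome 9, 46232933 to 46235636, minus strand), an inhibitor of lipoprotein lipase and of particle uptake, had 894 and 915 FPKM in liver, against 603 and 498 in small intestine. Kidney was at 4.23 and 6.04 and lung at 4.04 and 2.30. Liver was above small intestine in both libraries, and both were far above kidney and lung. The difference was 0.72 (SE 0.24, 95% interval 0.17 to 1.28, adjusted p = 0.0330), which passed the threshold on p but not that on size. With median-of-ratios scaling it was 1.59 (adjusted p = 0.00449) and was called, and with quantile normalization 0.41 (adjusted p = 0.274).

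Apoe (chromosome 7, 19696109 to 19699188, minus strand) encodes the ligand through which remnant particles bind the LDL receptor family, and is known to be made by hepatocytes and macrophages. The liver libraries were at 6861 and 6314 FPKM, ranks 5 and 8 outside the mitochondrial genes. Lung came next, at 383 and 347, followed by small intestine at 144 and 95.7 and kidney at 53.7 and 58.4. All neighbours in this order were without overlap. Liver minus small intestine was 5.80 (SE 0.20, adjusted p = 3.41e-07), a 55.0-fold higher mean FPKM in liver.

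Apoh (chromosome 11, 108343354 to 108414396, plus strand) encodes a plasma glycoprotein that binds anionic phospholipid and is found in part on lipoproteins. Its level was 976 and 949 FPKM in liver, against 0.737 and 0.609 in small intestine, 11 reads in each intestinal library. Kidney had 3.16 and 4.06 and lung 2.06 and 1.06, so the small intestine was again the lowest tissue, although it overlapped with lung with median-of-ratios scaling. Liver minus small intestine was 9.17 (SE 0.21, adjusted p = 1.50e-07).

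**Figure D2:**
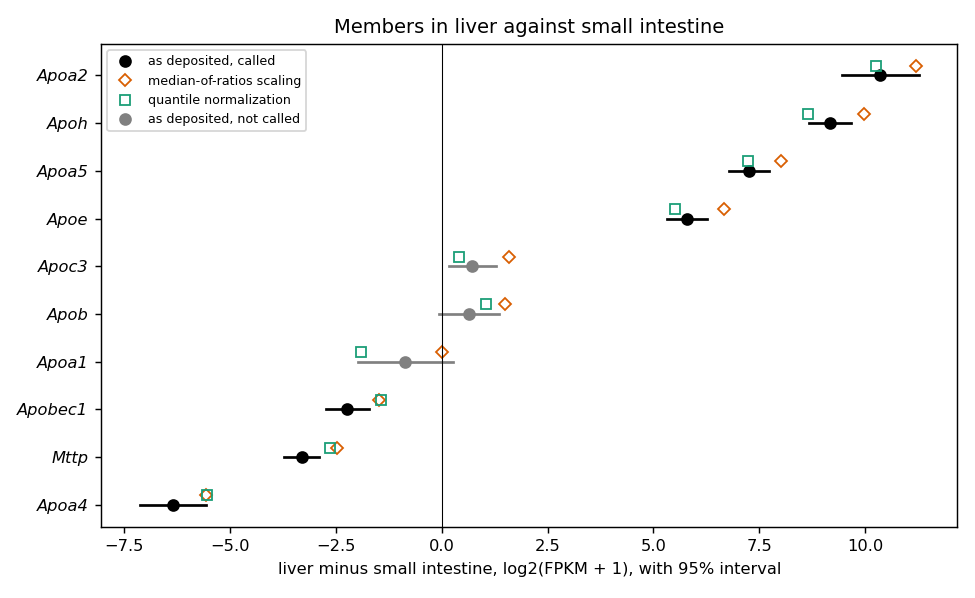
Difference of liver minus small intestine in log2(FPKM + 1) for the 10 members, with the 95% interval of the limma fit on the values as deposited, in black where called and grey where not, and with the difference after median-of-ratios scaling and after quantile normalization. Apoa2 is highest at 10.36 and Apoa4 lowest at -6.35, and the 3 members in grey change call or direction with the scaling.

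Levels relative to Apob in the same library do not depend on a scaling by a common factor per library, such as median-of-ratios, apart from the pseudocount. Quantile normalization can change them and was not applied to these ratios. Of the other 9 members, 8 had ratios that did not overlap between liver and small intestine, and Apoc3 did overlap. The share of all genes whose ratios do not overlap was not counted, so the 8 are not read as a trait of the members. The ratio of Mttp to Apob was 0.268 and 0.363 in liver, against 5.31 and 4.77 in small intestine, so that Mttp was below Apob in both liver libraries and above it in both intestinal ones. The ratio of Apoa1 to Apob was 32.2 and 34.4 in liver, against 106 and 85.1 in small intestine. Apoa1, whose own difference was not called, was thus higher relative to Apob in both intestinal libraries, by a log2 difference of 1.50 in size (liver minus small intestine, -1.50). Apoc3 relative to Apob was 9.09 and 12.3 in liver, against 12.3 and 8.17 in small intestine, a log2 difference of 0.08. With 2 libraries against 2, an exact permutation test cannot go below p = 0.333, so these ratios are given without a test.

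**Figure D3:**
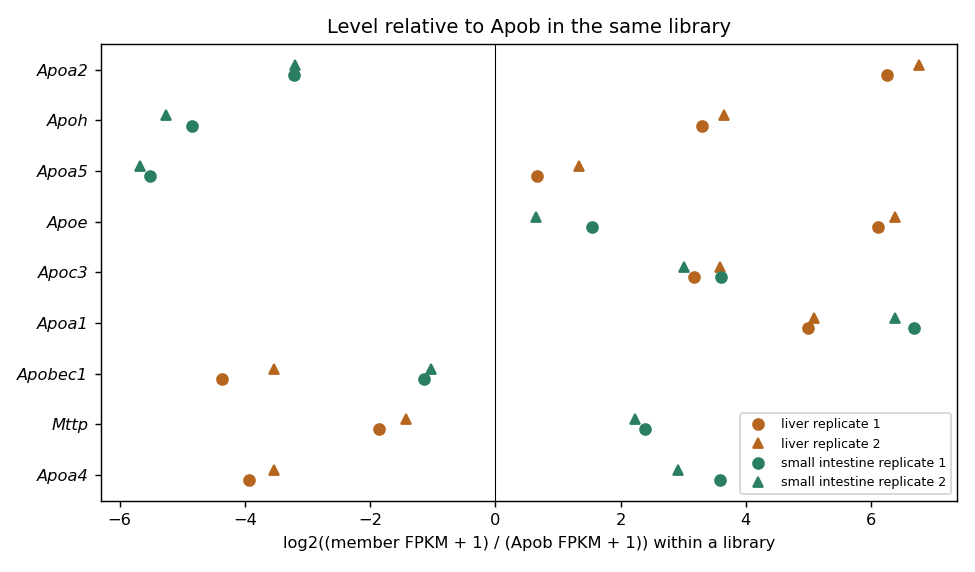
Log2 ratio of each member to Apob within each liver and small intestine library, from FPKM + 1, where 0 on the axis is the level of Apob. Mttp lies below 0 in both liver libraries and above 0 in both intestinal libraries, Apoc3 overlaps between tissues, and the other members are apart.

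Together the 10 members made up 5.62% and 5.18% of the summed FPKM outside mitochondrial genes in liver, 1.95% in each library of small intestine, 0.0330% and 0.0402% in kidney, and 0.113% and 0.0952% in lung. In liver 5 of them ranked among the highest 100 genes in both libraries, Apoa2, Apoe, Apoa1, Apoh and Apoc3. In small intestine these were 3, Apoa1, Apoa4 and Apoc3. Apoe was the only member in the highest 100 in lung, at ranks 84 and 93, and none reached it in kidney.

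The clusters of neighbouring genes held unlike patterns. On chromosome 9 the order is Apoa1, Apoc3, Apoa4 and Apoa5. The first 2 of these were high in liver and small intestine, Apoa4 in small intestine, and Apoa5 in liver. On chromosome 7 the order is Apoc2, Apoc4, Apoc1 and Apoe, of which Apoc4, Apoc1 and Apoe were called higher in liver, with log2 differences of 6.30, 10.18 and 5.80. Apoc2, the cofactor of lipoprotein lipase, was at 2.82 and 1.91 FPKM in liver and at 1.31 and 1.19 in small intestine (log2 difference 0.56, adjusted p = 0.0136). It was not called on these values but was called higher in liver with median-of-ratios scaling (1.20, adjusted p = 0.00123) and quantile normalization (1.17, adjusted p = 0.00112). Apoc2 shares 79.5% of its exon length with Gm44805, which was listed at 0 in every library.

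**Figure D4:**
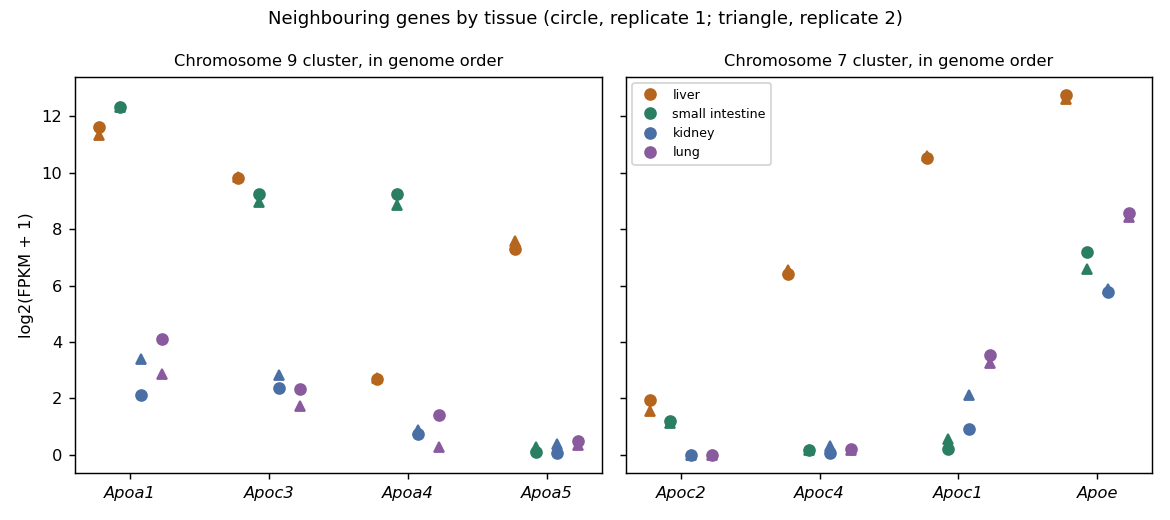
Level in log2(FPKM + 1) of the genes of the chromosome 9 and chromosome 7 clusters, in genome order, in all 8 libraries coloured by tissue, with circles for replicate 1 and triangles for replicate 2. Within the chromosome 9 cluster the tissue with the highest mean changes from gene to gene, although Apoa1 and Apoc3 were not called between liver and small intestine. Within the chromosome 7 cluster liver is highest for every gene.

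Against the mean of kidney and lung, 9 of 10 members were called higher in liver and none was called lower, where 6.42% of all genes tested were higher and 35.3% lower (41.7% either way). The log2 differences ran from 1.87 for Apoa4 to 9.20 for Apoa2. Apobec1 was the member not called, at 0.24 (SE 0.19, adjusted p = 0.260), with liver between lung and kidney in the deposited values. It was called with median-of-ratios scaling, which puts liver above lung, at 1.23, and with quantile normalization, at 1.06.

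In small intestine against the same tissues, 6 members were called higher, Apoa1 at 9.21, Apoa4 at 8.22, Mttp at 6.88, Apoc3 at 6.79, Apob at 4.62 and Apobec1 at 2.47 on the log2 scale. The background was 10.9% of genes higher and 16.5% lower, 27.4% in all. Apoa2 and Apoh were called lower, at -1.16 (adjusted p = 0.0208) and -1.02 (adjusted p = 0.00242), but neither passed with median-of-ratios scaling (-0.94 and -0.92), and neither passed without kidney replicate 2 (-0.86 and -0.95) or without lung replicate 1 (-0.99 and -0.88). Without small intestine replicate 2 neither was called, and without small intestine replicate 1 Apoh alone was. Apoa5 and Apoe were not called, at -0.13 and -0.29. These contrasts share the kidney and lung libraries with those of liver.

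Between kidney and lung, 1 member was called higher in kidney and 2 higher in lung, beside 8.87% and 41.4% of all genes tested, or 50.3% either way. Apob was higher in kidney by 1.61 (SE 0.30, adjusted p = 0.00204), with 1311 and 456 reads in the kidney libraries and 54 and 33 in lung. Apoe was higher in lung, with a difference of kidney minus lung of -2.68 (SE 0.20, adjusted p = 1.56e-05), and so was Apobec1, at -2.41 (SE 0.21, adjusted p = 3.76e-05). The median over all genes was -0.81 in this contrast. With median-of-ratios scaling Apoe and Apobec1 were still called higher in lung, while 4 members were called higher in kidney, Apob, Mttp, Apoc3 and Apoh, beside 17.9% of all genes higher and 17.8% lower. Without kidney replicate 2, Apoa1 (-1.35) and Apoa2 (-1.36) were also called lower in kidney, and Apoh was called higher there without kidney replicate 1 (1.01) or lung replicate 1 (1.15). Macrophage markers moved in the same direction as Apoe and Apobec1, with 5 of 6 above kidney in both lung libraries and summed levels of 144 and 117 FPKM in lung and 15.9 and 12.7 in kidney. Clec4f, the marker of liver macrophages, was listed at 0 in both lung libraries. Adipocyte markers moved the same way, with 3 of 4 above kidney and sums of 23.9 and 15.9 in lung against 0.232 and 0.618 in kidney. The part of these cells in the difference was not tested.

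Low levels in kidney and lung were set beside those of marker genes of liver and small intestine, each as a share of the mean in its highest tissue. Alb, the albumin gene, was at 0.0485% to 0.215% in these 4 libraries, Hpx at 0.0361% to 0.314%, and Serpina1c at 0.152% to 0.436%. Ttr was at 1.40% and 2.51% in kidney. The intestinal markers Fabp2 and Alpi were at 0.0124% to 0.252%. Of the other markers in the same lists, Tat, Sis and Lct were at most 0.309%. Higher shares were found in kidney for Cyp2e1 (22.5% and 18.3%), Vil1 (7.38% and 5.62%) and Anpep (2.37% and 1.73%). In lung Anpep was at 1.95% and 1.50%. Apoa1, Apoa2, Apoa4 and Apoa5 were within 0.0213% to 0.312%, Apoh within 0.110% to 0.422%, Apoc3 within 0.254% to 0.668% and Mttp within 0.231% to 0.716%. In lung Apob was at 0.459% and 0.220%. Among the members the higher shares were those of Apob in kidney (5.07% and 2.18%), Apoe in kidney (0.816% and 0.886%) and lung (5.82% and 5.27%), and Apobec1 in kidney (4.39% and 3.85%) and lung (39.0% and 38.7%). Kidney replicate 2 was above replicate 1 for Alb, Apoa1, Apoa2, Apoa4, Apoa5, Apoc3, Apoe and Apoh but not for Mttp, Apob and Apobec1 (with median-of-ratios scaling, not for Apob alone), and lung replicate 1 was above replicate 2 for Alb and all 10 members. With median-of-ratios scaling the shares in lung were lower, at 1.88% and 1.63% for Apoe and 23.0% and 21.8% for Apobec1. The origin of the low values was not tested.

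The other genes of lipoprotein metabolism were read from 7 lists with 95 genes, of which 93 were tested. Of these, 33 were called higher in liver and 25 higher in small intestine, and with median-of-ratios scaling 46 and 16. The lists describe the setting of the members and are read beside the 7.89% and 28.3% of all genes in the fit of the deposited values. With median-of-ratios scaling 15.2% of all genes tested were higher in liver and 16.5% lower, and the counts given here under that scaling are read beside those shares.

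Among 11 other apolipoproteins, 9 were called higher in liver and none in small intestine, with a median difference of 6.30. The largest were Apoc1, an inhibitor of lipoprotein lipase, at 10.18, Apof at 8.46, and Apom, the carrier of sphingosine-1-phosphate, at 7.31. Over the members and these 11, Apoa4 was the only apolipoprotein gene called higher in small intestine in the fit of the deposited values, and Apoa1 was called as well with quantile normalization.

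Particle assembly and export went the other way, with 0 of 16 genes called higher in liver and 8 in small intestine at a median of -0.94. The difference was largest for Tm6sf2, a protein of lipoprotein lipidation, which was at 16.3 and 14.2 FPKM in liver, against 170 and 177 in small intestine (log2 difference -3.43, adjusted p = 3.51e-06). Sec23a, of the coat of export vesicles, was at -1.80 and Tmem41b, a lipid scramblase, at -1.63, a difference not called with median-of-ratios scaling (-0.92). Only 2 of the 16 were called higher in small intestine and 1 in liver with median-of-ratios scaling, so most of this count rests on the scaling. Mttp, which belongs to the same step, was called under both.

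Of the partners of Apob mRNA editing and relatives of Apobec1, 5 of 6 were tested and 2 were called, both higher in small intestine. These were Rbm47, a cofactor of the editing enzyme, at -1.91, and Apobec3, a related deaminase that acts on viral DNA, at -2.35. With median-of-ratios scaling 2 of the 5 were called higher in liver and 2 in small intestine.

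Among the 19 genes that supply triglyceride and cholesteryl ester, 8 were called higher in liver and 7 in small intestine. Ces1d, a lipase that mobilises stored triglyceride, was higher in liver by 4.73, Lpin1, a phosphatidate phosphatase, by 3.41, and Acsl1, which activates fatty acids, by 3.20. Lpin1 differed between the liver libraries, at 36.7 and 9.48 FPKM, and its difference was 2.49 without liver replicate 1 and 4.34 without replicate 2, called in both cases. In the other direction were Mogat2, which reesterifies absorbed monoacylglycerol, at -7.51, Fabp2, the intestinal fatty acid binding protein, at -6.65, and Dgat1, which completes triglyceride synthesis, at -5.33. Fabp2 is also one of the enterocyte markers. These 3 intestinal differences were each larger in size than that of Mttp.

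Plasma enzymes and remodelling factors resembled the other apolipoproteins in direction, with 9 of 13 called higher in liver and none in small intestine. Pon1, an esterase carried on high density lipoproteins, was at 8.23, and Lcat, the cholesterol esterifying enzyme that Apoa1 activates, at 7.37. Of 15 receptors and high density lipoprotein transporters, 2 were called higher in liver, Scarb1 at 2.55 and Sdc1 at 1.43, which encode receptors for high density lipoproteins and for remnants. In small intestine 5 were higher, with Cubn at -2.90, Sort1 at -2.10 and Abcg5 at -1.87 the largest. Median-of-ratios scaling turned these counts to 5 and 3.

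Of 15 transcription factors of apolipoprotein genes 14 were tested, and 5 were called higher in liver and 3 in small intestine (8 and 2 with median-of-ratios scaling). Nr0b2 at 3.22, Prox1 at 2.49 and Ppara at 2.05 were the largest in liver. In small intestine Cdx2, which sets intestinal identity, was at -4.73, Gata4 at -3.08 and Ppargc1a at -1.71. Ppara was at 1.45 without small intestine replicate 1 and still called. Ppargc1a was not called without liver replicate 2 (-1.36), without small intestine replicate 2 (-1.38) or with quantile normalization (-0.99), nor with median-of-ratios scaling (-1.06). Cdx2 was at 23.9 and 27.5 FPKM in small intestine and listed at 0 in both liver libraries.

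**Figure D5:**
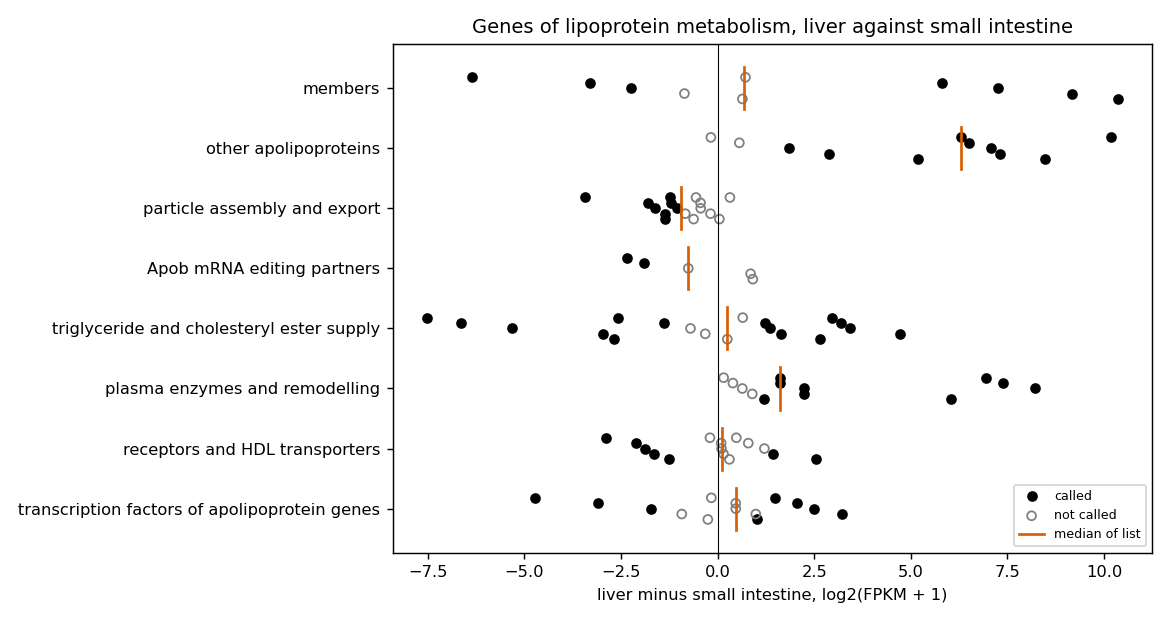
Difference of liver minus small intestine in log2(FPKM + 1) for every tested gene of the members and of the 7 lists, with filled points for called genes, open points for others and a line at the median of each list. Other apolipoproteins and plasma enzymes have calls on the liver side (9 each), assembly and export on the intestinal side (8), and the members on both (4 and 3).

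The genes whose levels followed those of 4 members most closely were found by the Pearson correlation of log2(FPKM + 1) over the 8 libraries, among 6766 genes that reached an FPKM of 10 in 2 or more libraries. The points fall into 4 tissues of 2 libraries, so the coefficients describe tissue patterns and are given without p. For Apob these were Fmo5 at 0.991, Sema4g at 0.987, Reep6 at 0.985, Ugt2b34 at 0.983 and another member, Apoc3, at 0.976. Apoa1 was followed by Ces2a at 0.997, Nags and Hsd17b6 at 0.995, Fabp1, the fatty acid binding protein of liver and gut, at 0.994 and Apol9a at 0.994. The nearest to Apoa4 were Gm9992 at 0.994, Gimd1 at 0.993, Gata4 at 0.990, Fabp2 at 0.989 and Ifi27l2b at 0.988. Those of Apoe were Cyp4f15 at 0.995, Nrn1 at 0.995, Fcna and Pglyrp2 at 0.993, and Plin2, the coat protein of lipid droplets, at 0.992.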

How the data were processed

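The authors selected reads by sample index with bbduk, mapped them with STAR 2.5.3a under default parameters to the Ensembl mouse genome (GRCm38) and deposited FPKM values computed by DESeq2 (its fpkm function). The counting program and its use of strand are not given in the sources used here. Of the 52195 symbols, 99.3% had exactly 1 match in GENCODE M21, the source of coordinates and exon lengths. Of the values up to 50 reads, 94.6% to 96.1% per library were whole multiples of 1 read within 0.02 reads, which gave the depth.

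Genes that reached an FPKM of 1 in 2 or more libraries were fitted with limma 3.58.1 (R 4.3.3) on log2(FPKM + 1), with all 8 libraries in 1 fit, a trend in eBayes and Benjamini-Hochberg adjustment over the 16328 genes. Fold changes are on that scale unless the mean FPKM is named. The step was tested on simulated data. Descriptive values used Python 3.11.15 with pandas 2.3.3. Alternatives changed the pseudocount, filter, scaling, trend, block, libraries and denominator. DESeq2 was not run as a test because the values are FPKM. limma-voom on recovered reads was added after seeing the data.

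The members and lists were chosen with earlier results of these data known. The named genes were all members, from each list the 3 with the largest differences in each direction among those called, and the 5 genes nearest to each of 4 members. The result of 1 listed gene is not reported here. Hnf4a, Apoc2, Apoc4 and the overlapping Gm genes were added after their values were seen. So were, from the marker lists, Alb, Hpx, Serpina1c, Ttr, Cyp2e1, Tat, Alpi, Sis, Lct, Vil1, Anpep, Adipoq, Cidec, Plin1, Lep and Clec4f. The methods state 2 biological replicates per tissue, and p-values measure the spread between these.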

Additional observations from a re-analysis of the deposited data

Results flagged for a closer look

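For 7 members the departure of liver from kidney and lung differed from that of small intestine, tested by the contrast of liver minus small intestine in the limma fit. On the log2 scale this difference was 10.36 for Apoa2, 9.17 for Apoh, 7.25 for Apoa5 and 5.80 for Apoe, all higher in liver. It was -6.35 for Apoa4, -3.31 for Mttp and -2.23 for Apobec1, all higher in small intestine. These are the 7 members already called in that contrast, so their listing here is no further support. Both libraries of the higher tissue were above both of the lower tissue in each case, which the calls made likely beforehand. With 2 libraries per tissue, no single library could be tested as an outlier.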

How the results depend on the processing

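Over 68 results, 866 of 948 values under alternatives were judged the same. For a log2 difference this meant the same direction and the same side of the thresholds. For a count it meant a change by a ratio of no more than 3/2. In liver against small intestine, scaling moved the median of all genes and the split of calls most. Higher and lower in liver than in small intestine were 2364 and 2561 of all genes with median-of-ratios scaling and 2138 and 2491 with quantile normalization, and listed genes lower in liver were 16 with either. limma-voom on recovered reads called 6951 genes lower. Members lower in small intestine than in kidney and lung were 1 without the filter on low values and 0 with either scaling, and 0 to 2 with a library left out. Members higher in kidney than in lung were 3 with a pseudocount of 0.1, 4 with either scaling or with the same sum outside mitochondrial genes, and 1 to 2 with a library left out, and members lower were 2 to 4 in the last case. The share of all genes higher in kidney also moved, from 8.87% to 10.2% with that pseudocount, 17.9% and 15.9% with median-of-ratios and quantile scaling, and 13.9% with the same sum. With Mttp in place of Apob as the denominator, 8 members had ratios above those of small intestine in both liver libraries, and 1 had ratios below. No share over all genes was counted for either denominator. Directions turned for Apoa1 in liver against small intestine with median-of-ratios scaling (0.012) and for Apoe in small intestine against kidney and lung with a library left out (-0.58 to 0.0058, the latter without small intestine replicate 2). Between kidney and lung they turned for Apoa4 with a pseudocount of 0.1 (0.20), median-of-ratios scaling (0.38), quantile normalization (0.56), the same sum outside mitochondrial genes (0.28), without kidney replicate 1 (0.05) and without lung replicate 1 (0.53; -0.58 without lung replicate 2), for Apoa1 (0.26 and 0.068) and Apoa5 (0.044 and 0.17) with median-of-ratios and quantile scaling, and for Apoa2 (0.27) with the former. None of these values was called, and the causes were not tested.

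The same mice gave all 4 tissues, but the replicate numbers are not tied to mice. Deviations of same-numbered libraries correlated between -0.22 and 0.05 over the 6 pairs of tissues, so the numbers were not used as pairs. The fit with the replicate block called 1275 genes higher and 4617 lower in liver than in small intestine and changed no call of a member. Depth limits Apoa5 outside liver, with 8 reads in small intestine and 16 in kidney.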
